A study of Mus musculus with 6 samples.

Results

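The RNA levels of 32 genes of glucose metabolism were compared in CD8+ T cells of WT and BIT mice. They were all the rows of the deposited table whose symbol is on a list of genes for glucose entry, glycolysis, lactate, the step of pyruvate into mitochondria and the pentose phosphate pathway, together with the transcription factor genes *Myc* and *Hif1a*. All 32 were found among the 78275 genes of the table, and all 32 passed the filter on low counts that left 16105 genes for the test. The rule itself used gene symbols only.

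BIT mice are C57BL/6 mice, homozygous for an allele in which the sequence of *Psmb11*, the gene of the thymoproteasome subunit β5t, replaces that of *Psmb8*, the gene of the immunoproteasome subunit β5i. WT mice carried the unchanged *Psmb8* gene. No drug or infection is named for either group, and the replacement is in the germline and not limited to T cells, and the results of the study come from a single BIT line unless it states otherwise. CD4-CD8+ TCRβ-high T cells were sorted from 3 WT and 3 BIT mice, labelled as male and 9 to 10 weeks old, with 1 RNA library per mouse. The labels name the lymph nodes as the tissue and, in the sorting protocol, lymph nodes and spleens, and they name no gate on the activation state. The question asked was which of the alternative enzyme and transporter genes had the higher RNA level, and whether any of these genes differed between BIT and WT mice. Protein and enzyme activity of these genes were not measured in these data.

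*Psmb8* had 10790, 10345 and 8024 counts in WT and 73, 59 and 60 in BIT mice, and *Psmb11* had 0 in every WT mouse and 1926, 1754 and 1226 in BIT mice, as labelled. Total counts were 37467678 to 52922675 per library. The summed level of 7 CD8 T cell markers was 4405 to 4823 CPM (CPM are counts scaled to a common library total) in WT and 4510 to 4807 CPM in BIT libraries. The summed level was at most 4.93 CPM for 3 CD4 T cell markers, 5.03 CPM for 2 γδ T cell markers, 30.6 CPM for 4 B cell markers, 16.1 CPM for 5 myeloid markers and 2.32 CPM for 2 NK cell markers. These marker sums were made from CPM without quantile normalization, whereas the levels of single genes below are CPM after it. The library of WT replicate 3 had 66626 counts of *Xist* and 0 counts of *Ddx3y*, *Eif2s3y*, *Kdm5d* and *Uty*, which lie on the Y chromosome, against its label as male. It also had the highest sum of 5 markers of activated or dividing T cells, 276 CPM, also without quantile normalization, against 117 to 223 CPM in the other 5 libraries. How many of the 32 genes passed the test is given below with and without this library. The same was done for the log2 fold changes of the 3 genes whose BIT and WT values did not overlap. The levels, ratios and sums over a step include it.

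Glycolysis splits glucose into pyruvate in the cytosol and yields ATP, and the pentose phosphate pathway draws off glucose 6-phosphate to make NADPH and ribose for nucleotides. Several of the steps can be run by alternative enzymes or transporters that different genes encode. T cells that leave the resting state are known to raise glucose uptake, glycolysis and lactate release, and MYC and HIF-1 are the transcription factors best known for driving the genes of these steps.

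Several of these genes share short letter patterns before their start site, and the windows of a few are shown because they belong to alternative genes of 1 step or to the enzymes of both upper and lower glycolysis. CACGTG is the E-box that MYC with its partner MAX can bind, and ACGTG is the core of the element that HIF-1 can bind. Both were searched on both strands of the 250 bases before the canonical start site of each gene (GRCm39, Gencode M39), and every CACGTG also holds ACGTG on each strand. The windows below are written 5′ to 3′ on the strand of the gene, with ACGTG or its reverse complement CACGT in capitals. *Pfkp* encodes the platelet-type phosphofructokinase (chr13:6698971-6699220, minus strand) and *Slc16a1* the lactate transporter MCT1 (chr3:104545561-104545810, plus strand), and each window has 1 CACGTG. *Hk2* encodes hexokinase 2 (chr6:82751453-82751702, minus strand) and *Pgk1* phosphoglycerate kinase (chrX:105230456-105230705, plus strand), and each window has 2 ACGTG and no CACGTG.
Pfkp: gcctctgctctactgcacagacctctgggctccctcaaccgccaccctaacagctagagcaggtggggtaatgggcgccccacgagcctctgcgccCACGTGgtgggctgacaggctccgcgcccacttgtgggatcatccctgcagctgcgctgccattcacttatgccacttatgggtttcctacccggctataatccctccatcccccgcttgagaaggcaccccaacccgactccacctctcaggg
Slc16a1: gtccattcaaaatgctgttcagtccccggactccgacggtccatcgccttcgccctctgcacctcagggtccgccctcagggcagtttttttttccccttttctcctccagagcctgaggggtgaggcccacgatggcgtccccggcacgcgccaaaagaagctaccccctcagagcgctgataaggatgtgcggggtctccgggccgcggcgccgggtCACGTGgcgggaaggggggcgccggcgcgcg
Hk2: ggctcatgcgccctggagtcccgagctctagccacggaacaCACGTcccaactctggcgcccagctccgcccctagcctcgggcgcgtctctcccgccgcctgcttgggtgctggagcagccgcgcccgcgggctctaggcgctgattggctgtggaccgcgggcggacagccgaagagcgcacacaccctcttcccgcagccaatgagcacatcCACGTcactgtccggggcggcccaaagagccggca
Pgk1: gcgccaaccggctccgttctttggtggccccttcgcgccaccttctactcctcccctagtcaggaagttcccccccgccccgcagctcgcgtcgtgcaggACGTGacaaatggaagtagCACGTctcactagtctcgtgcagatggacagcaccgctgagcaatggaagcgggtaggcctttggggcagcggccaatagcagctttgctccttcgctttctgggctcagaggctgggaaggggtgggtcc

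The letters CACGTG were in the windows of 4 of the 32 genes (12.5%), which were *Hif1a*, *Ldha*, *Pfkp* and *Slc16a1*, against 6.26% of the windows of 21770 protein-coding genes and 7.91% of those of the 11319 that were tested. ACGTG was in the windows of 10 of the 32 genes (31.25%), against 17.0% of all windows and 21.4% of those of tested genes, and beside those 4 genes and *Hk2* and *Pgk1* these were *Aldoa*, *Pdhb*, *Pfkm* and *Pgam1*. The windows of the 32 genes also held more G and C, with a median of 60.8% against 53.2% in all and 56.8% in tested genes. The window of *Ldha*, the gene of the A subunit of lactate dehydrogenase, held 2 CACGTG, the first at 180 and the second at 83 bases before the start. A match is a description of these letters only. No binding was measured here.

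In the WT mice the levels per kilobase of annotated exon spanned 1080-fold, from *Gapdh* to *Slc16a3*. To compare genes of different length, quantile-normalized CPM were divided by the length of all annotated exons of the gene in kilobases. *Gapdh*, which encodes glyceraldehyde 3-phosphate dehydrogenase, stood first at 64.4 ± 1.24 CPM per kb (SD, n = 3), and the WT range of the next gene, *Aldoa*, lay below its range. *Aldoa*, the gene of aldolase A, had 55.9 ± 3.54 CPM per kb, *Ldha* 53.6 ± 6.46, and *Myc* 47.6 ± 6.13. The ranges of neighbours from *Aldoa* to *Gpi1* overlapped, so that the order of neighbours among *Aldoa*, *Ldha*, *Myc*, *Pgk1* and *Gpi1* was not resolved. Genes further apart were in part separated. Every WT value of *Aldoa* lay above those of *Myc*, *Pgk1* and *Gpi1*, and every WT value of *Ldha* and *Myc* above those of *Gpi1*.

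Of the 32 genes, 13 were above 20 CPM per kb in WT mice. The payoff enzymes of lower glycolysis were all among them, with 44.0 CPM per kb for *Pgk1*, 33.6 for *Eno1* (enolase 1), 27.7 for *Pkm* (the muscle-type pyruvate kinase) and 26.4 for *Pgam1* (phosphoglycerate mutase 1). Only 5 genes were below 1 CPM per kb, and these were *Pfkm* (0.592), *Hk2* (0.526), *Pfkfb4* (0.260), *Aldoc* (0.0787) and *Slc16a3* (0.0596). Each of the 5 serves a step for which another of the 32 genes stood higher. The ranges of neighbours in the order of the WT levels did not overlap for 13 of 31 pairs and overlapped for the other 18.

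**Figure D1:**
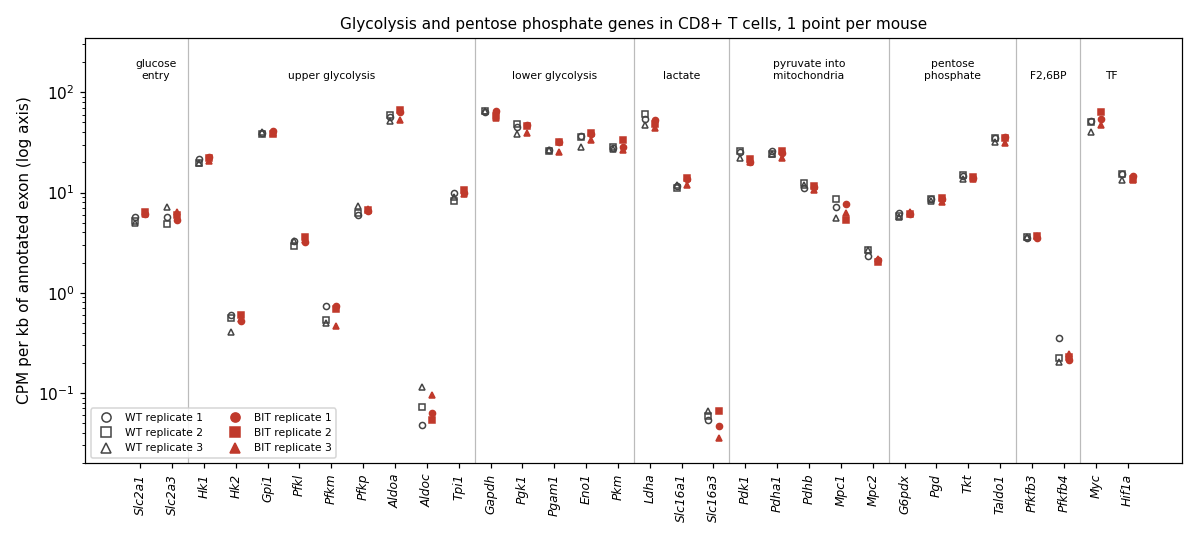
Level of each of the 32 genes in each mouse, in CPM per kb of annotated exon on a log axis, with open symbols for 3 WT and filled red symbols for 3 BIT mice and the genes grouped by step (F2,6BP, enzymes of fructose 2,6-bisphosphate, and TF, transcription factors). *Hk2*, *Pfkm*, *Aldoc*, *Slc16a3* and *Pfkfb4* lie below 1 CPM per kb in all 6 mice, and the symbols of WT and BIT mice lie close to each other for nearly all genes.

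The length used for a gene matters for this order. Total RNA without poly(A) selection holds unspliced transcripts, and the union of annotated exons can be longer than any 1 transcript. With the length of the Ensembl canonical transcript, *Gapdh* remained first at 325 CPM per kb, and *Aldoa* was second at 199. *Gpi1*, the gene of glucose 6-phosphate isomerase, had 39.5 CPM per kb of all exons and 117 of its canonical transcript, and ranked 6 with both. With the length of the longest annotated transcript it had 106 CPM per kb and ranked 2. With the canonical length other genes moved, as *Myc* fell from rank 4 to 8 and *Pgk1* from 5 to 9. *Eno1* rose from rank 8 to 3 and *Pkm* from 9 to 5.

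Of the 2 glucose transporter genes, *Slc2a1* (GLUT1) and *Slc2a3* (GLUT3), neither was the main one with the length of all exons. *Slc2a1* had 5.76, 5.19 and 4.93 CPM per kb in WT and 6.04, 6.33 and 6.13 in BIT mice. *Slc2a3* had 5.67, 4.80 and 7.14 CPM per kb in WT and 5.31, 5.92 and 6.37 in BIT mice. The ratio of *Slc2a1* to *Slc2a3* in the counts per kb of the same library ran from 0.704 to 1.13, with *Slc2a1* the higher gene in 4 of 6 mice. With the canonical transcript lengths the mean ratio was 0.547, and with the longest transcripts 0.864. *Slc2a1* was the higher gene in 0 of 6 mice with each of these lengths, so the order of the 2 genes depended on the length used. WT replicate 3 had the lowest ratio, and it had the highest level of *Slc2a3*. Of the other glucose or hexose transporter genes looked at, *Slc2a2*, *Slc2a4*, *Slc2a10* and *Slc2a12* had 0 to 3 counts per library and *Slc2a9* had 271 to 426.

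*Hk1*, the hexokinase gene of most tissues, had the highest RNA level of the genes looked at for the first phosphorylation of glucose. It had 21.7, 19.6 and 19.5 CPM per kb in WT and 22.6, 21.9 and 20.7 in BIT mice, whereas *Hk2* had 0.606, 0.563 and 0.409 in WT and 0.516, 0.605 and 0.550 in BIT mice. *Hk1* was 33.3 to 48.1 times higher than *Hk2* in each of the 6 mice, and no value of *Hk2* came near those of *Hk1*. *Adpgk*, the gene of the ADP-dependent glucokinase, had 1371 to 1671 counts per library. In WT mice it had 3.14 CPM per kb, against 0.526 for *Hk2*. *Hk3* had 34 to 66 counts per library and *Hkdc1* 0 to 2. A count of 0 allows up to 3 counts. The antisense gene *Hk1os* had 42 to 89 counts, against 7036 to 10180 for *Hk1*, and how the counting used the strand is not given in the sources used here.

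Phosphofructokinase, which commits sugar to glycolysis, is a tetramer of the products of *Pfkl* (liver type), *Pfkm* (muscle type) and *Pfkp* (platelet type). *Pfkp* had 5.96, 6.23 and 7.25 CPM per kb in WT and 6.50, 6.68 and 6.90 in BIT mice. *Pfkl* had 3.26, 2.91 and 3.30 in WT and 3.21, 3.59 and 3.35 in BIT mice. *Pfkp* was the highest of the 3 in every mouse, with *Pfkl* at 0.462 to 0.547 of its level and *Pfkm* at 0.0728 to 0.118. This order was the same with the longest and the canonical transcript lengths.

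Of *Pfkfb3* and *Pfkfb4*, for enzymes that set fructose 2,6-bisphosphate, the activator of phosphofructokinase, *Pfkfb3* was the higher in every mouse. The other genes looked at for this metabolite were *Tigar*, *Pfkfb2* and *Pfkfb1*, with 2.02, 0.719 and 0.119 CPM per kb in WT mice. *Tigar* and *Pfkfb2* thus stood above *Pfkfb4*, at 0.260, and below *Pfkfb3*, at 3.57. With the canonical transcript lengths *Tigar* had 3.63 CPM per kb in WT mice, against 5.11 for *Pfkfb3*. *Pfkfb3* had 3.50 to 3.69 CPM per kb over the 6 mice and was 11.0 to 19.7 times higher than *Pfkfb4*, the lowest ratio being in WT replicate 1. That mouse had 2.44 CPM of *Pfkfb4* against 1.39 to 1.67 CPM in the other 5. *Pfkfb3* had the most even level of the 32 genes, with its highest mouse only 1.05 times its lowest, and its 6 values were 28.3, 28.9 and 29.3 CPM in WT and 28.5, 29.7 and 29.8 CPM in BIT mice.

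The choice was sharpest for aldolase and for the lactate transporters. *Aldoa* was 324 to 1753 times higher than *Aldoc* per kb, and *Aldoc*, the brain type, had 11, 17 and 30 counts in WT and 10, 7 and 20 in BIT libraries. Both libraries of replicate 3 had the highest counts of *Aldoc* in their group. *Slc16a1*, for MCT1, was 134 to 363 times higher than *Slc16a3*, for MCT4, which had 28, 33 and 41 counts in WT and 18, 26 and 18 in BIT libraries. With so few counts of *Aldoc* and *Slc16a3*, the size of these ratios is imprecise. *Bsg* and *Emb*, which encode chaperones of the monocarboxylate transporters, had 32.9 ± 3.53 and 28.7 ± 1.91 CPM per kb in WT mice.

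For several steps with a single gene on the list, the other genes looked at for the same enzyme were lower. Lactate dehydrogenase RNA was mainly that of *Ldha*, with 53.6 CPM per kb against 1.40 for *Ldhb* in WT mice. *Eno1* had 33.6 CPM per kb against 0.803 for *Eno3* and 5.52 for the annotated copy *Eno1b*, and *Eno2* had 2 to 17 counts per library. The pyruvate kinase gene *Pklr* had 0 to 2 counts, *Gapdhs* 1 to 2, and *Pgk2* and *Pgam2* 0 in every library. *Pdk1*, the kinase that inhibits pyruvate dehydrogenase, had 24.3 CPM per kb against 2.47 for *Pdk3* and 1.06 for *Pdk2*, and *Pdk4* had 0 to 1 counts per library. This was not so for glucose 6-phosphate dehydrogenase, where *H6pd*, whose product has this activity in the endoplasmic reticulum, had 3.41 CPM per kb of all exons in WT mice against 5.95 for *G6pdx*, and 7.01 against 6.53 with the canonical lengths.

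The genes that bring pyruvate into mitochondria encode obligate partners. MPC1 and MPC2 form the carrier, and *Pdha1* and *Pdhb* encode the α and β subunits of the first enzyme of pyruvate dehydrogenase. *Mpc1* was 2.12 to 3.64 times higher than *Mpc2* per kb, and *Pdha1* 1.95 to 2.35 times higher than *Pdhb*. With the canonical lengths the mean ratios were 1.55 and 1.24. The direction was the same in all 6 mice under each of the 3 lengths.

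The pentose phosphate genes differed less among mice than most of the list. *G6pdx*, the X-linked gene of glucose 6-phosphate dehydrogenase that opens the oxidative branch, had 5.95 ± 0.275 CPM per kb in WT mice, and *Pgd*, for the next dehydrogenase, 8.43 ± 0.254. *Tkt* and *Taldo1*, for the transketolase and transaldolase of the non-oxidative branch, stood higher, at 14.5 ± 0.693 and 34.2 ± 1.71. The highest of the 6 mice was 1.11 times the lowest for *G6pdx*, 1.10 times for *Pgd*, 1.10 times for *Tkt* and 1.15 times for *Taldo1*. Over the 32 genes the median of this ratio was 1.27, over all genes tested 1.51. The genes were not matched for level, so these medians cannot be read as particular to the list. It was below 1.3 for 21 of the 32 genes and above 1.5 for 6, which were *Myc*, *Pfkm*, *Mpc1*, *Pfkfb4*, *Slc16a3* and *Aldoc*.

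**Figure D2:**
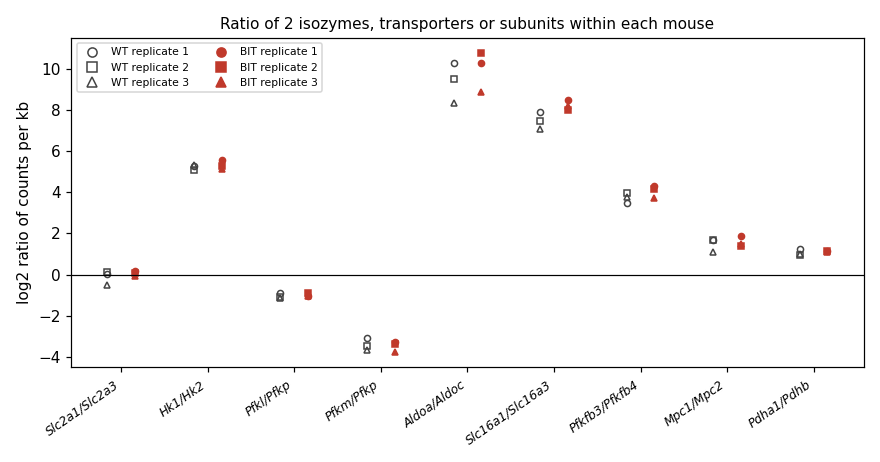
Ratio of alternative genes for the same step, or of partner subunits, in each mouse as log2 of the counts per kb of annotated exon, with open symbols for WT and filled red symbols for BIT mice and a line where both genes are equal. *Hk1*, *Aldoa*, *Slc16a1*, *Pfkfb3*, *Mpc1* and *Pdha1* exceed their partner in all 6 mice, *Pfkl* and *Pfkm* lie below *Pfkp* in all 6, and *Slc2a1* and *Slc2a3* straddle the line.

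None of the 32 genes passed the test between BIT and WT mice. In limma-voom with quantile normalization and Benjamini-Hochberg adjustment over all genes tested, 22 of 16105 genes (0.137%) had an adjusted p below 0.05, and 0 of the 32 did. The smallest adjusted p among them was 0.547, for *Pdk1*. A stricter call, over 2-fold with an adjusted p under 0.01, took in 0 of the 32 genes and 0.0248% of all genes tested. The counts were also 0 of 32 in edgeR and in DESeq2. At an unadjusted p below 0.05, limma-voom gave 3 of the 32 genes (9.375%), against 8.57% of all genes tested. By edgeR and by DESeq2 there were 2 each, and for these tests the share of all genes was not counted. Of the 3 genes, 1 was higher in BIT mice, against 4.25% of all genes tested, and 2 were lower, against 4.32%. The values of the 3 BIT and the 3 WT mice did not overlap for 3 of the 32 genes (9.375%), against 13.3% of all genes tested. Of these 3 genes, 1 was higher in BIT mice, against 7.38% of all genes tested, and 2 were lower, against 5.96%. Both overall shares were near those of all genes. In RNA of bulk cells, a difference in the cells of a type and a difference in the RNA per cell cannot be told apart.

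The log2 fold changes of the 32 genes ran from -0.29 for *Slc16a3* to 0.22 for *Slc2a1*. Of them 18 were above and 14 below 0, and their median was 0.01, as was that of all genes tested. The 95% interval lay within 0.5 of 0 on the log2 scale for 25 of the 32 genes, against 44.3% of all genes tested, and within 1, a 2-fold change, for 30 of the 32, against 70.2%. *Aldoc* and *Slc16a3*, which had the fewest counts, were the 2 exceptions. All genes tested were not matched to the 32 for level in these shares. The SE of the log2 fold changes had a median of 0.09 over the 32 genes and ran from 0.07 for *Gpi1* to 0.47 for *Aldoc*.

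**Figure D3:**
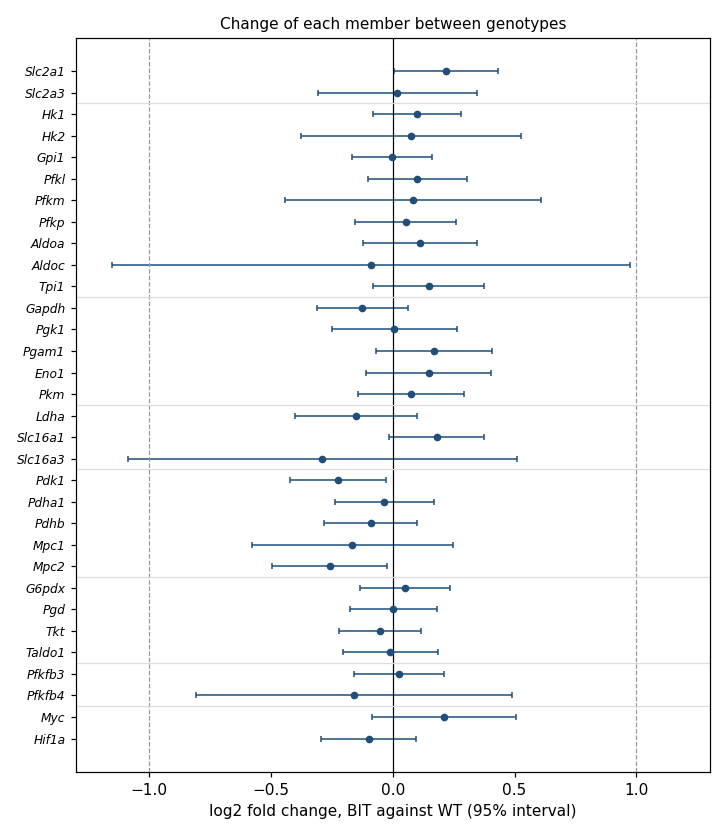
Log2 fold change of BIT against WT mice for each of the 32 genes with its 95% interval from limma-voom (3 mice per group), grouped by step, with dashed lines at a 2-fold change. The intervals of *Slc2a1*, *Pdk1* and *Mpc2* leave out 0 before adjustment, and only those of *Aldoc* and *Slc16a3* reach past a 2-fold change.

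*Slc2a1* (chromosome 4, 118965908 to 118996365, plus strand) was the only 1 of the 3 genes without overlap that was higher in BIT mice. It had 27.0, 24.3 and 23.1 CPM in WT and 28.3, 29.7 and 28.8 CPM in BIT mice. All 3 BIT mice lay above all 3 WT mice, the nearest being WT replicate 1 and BIT replicate 1. The log2 fold change was 0.22 ± 0.09 (SE), a 1.16-fold level with an interval from 1.00 to 1.35, with an unadjusted p of 0.0442 and a Benjamini-Hochberg adjusted p of 0.570 in limma-voom. *Slc2a3* had 42.5, 36.0 and 53.6 CPM in WT and 39.8, 44.4 and 47.8 CPM in BIT mice, and its groups overlapped (log2 fold change 0.02 ± 0.14).

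*Pdk1* (chromosome 2, 71703488 to 71734202, plus strand) was lower in all 3 BIT mice, with 221, 228 and 194 CPM in WT and 178, 191 and 180 CPM in BIT mice. The gap between the lowest WT value, of replicate 3, and the highest BIT value was small beside the spread of the WT mice. Its log2 fold change was -0.23 ± 0.09, with an unadjusted p of 0.0288 in limma-voom.

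*Mpc2* (chromosome 1, 165287125 to 165308785, plus strand) had 18.6, 21.5 and 21.4 CPM in WT and 17.2, 16.4 and 17.6 CPM in BIT mice. Here too every BIT mouse lay below every WT mouse, with WT replicate 1 the nearest. The log2 fold change was -0.26 ± 0.10, with an unadjusted p of 0.0349 and an adjusted p of 0.557 in limma-voom. An exact permutation test of 3 against 3 mice gave a two-sided p of 0.1 for each of the 3 genes, the smallest that this design allows.

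Without WT replicate 3 the log2 fold changes were 0.17 for *Slc2a1*, -0.30 for *Pdk1* and -0.23 for *Mpc2*, with unadjusted p of 0.119, 0.00680 and 0.0820 in limma-voom, and 0 of the 32 genes passed the adjusted threshold. The other 3 genes of the pyruvate step also had log2 fold changes below 0, at -0.17 ± 0.18 for *Mpc1*, -0.03 ± 0.09 for *Pdha1* and -0.09 ± 0.08 for *Pdhb*. Together the 5 genes took 0.0461%, 0.0431% and 0.0434% of the counts of the WT libraries and 0.0404%, 0.0428% and 0.0412% of those of the BIT libraries. These sums did not overlap, though the lowest WT and the highest BIT library, both of replicate 2, were nearly level. *Pdk1*, itself 1 of the 3 genes without overlap, had the most counts of the 5 genes in every library. Without quantile normalization it had 221, 206 and 200 CPM in WT and 175, 193 and 192 CPM in BIT libraries. The sums therefore largely repeat *Pdk1*, and a sum without it was not made. *Mpc1* lies on chromosome 17, as does *Psmb8*. Its 6 values overlapped, with 25.3, 30.2 and 19.6 CPM in WT and 26.8, 18.5 and 21.8 CPM in BIT mice.

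**Figure D4:**
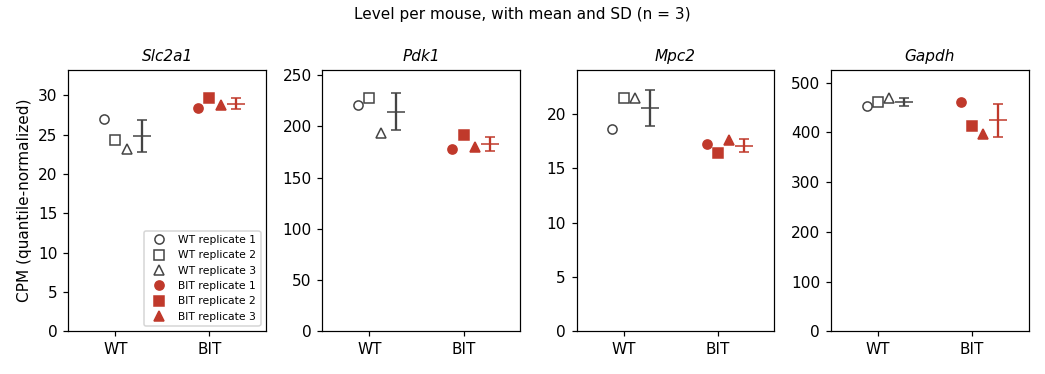
Quantile-normalized CPM per mouse of *Slc2a1*, *Pdk1*, *Mpc2* and *Gapdh*, with the mean and SD of 3 mice beside the points and each axis starting at 0. The first 3 genes are those of the 32 whose BIT and WT values did not overlap, and the values of *Gapdh* in BIT mice reach from 398 to 462 CPM, overlapping those in WT mice.

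*Gapdh*, a common reference gene of RT-PCR, had 452, 462 and 470 CPM in WT and 462, 413 and 398 CPM in BIT mice. The 3 WT values were close to each other, and 2 of the 3 BIT values lay below them. The log2 fold change was -0.12 with an interval from -0.31 to 0.06, which corresponds to a level of 0.806 to 1.04 times that of WT mice. *Gpi1*, with a highest mouse 1.08 times its lowest, varied less over the 6 mice than *Gapdh*.

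The enzymes of upper glycolysis, which invest ATP to split the sugar, had 7 log2 fold changes above and 2 below 0, none past the threshold. *Hk1* had 191, 172 and 171 CPM in WT and 198, 192 and 182 CPM in BIT mice, and its groups overlapped because WT replicate 1 was nearly level with the BIT mice. The 9 genes together took 0.102%, 0.0907% and 0.102% of the counts in WT and 0.106%, 0.108% and 0.105% in BIT libraries, which did not overlap. The sums of the other 6 steps and of all 32 genes overlapped between BIT and WT libraries. Among single genes of this step, log2 fold changes reached at most 0.15 ± 0.10, for *Tpi1* (triose phosphate isomerase). *Tpi1* had 27.3, 22.7 and 25.2 CPM in WT and 27.2, 29.1 and 26.8 CPM in BIT mice, and the groups overlapped. Those of *Gpi1*, at -0.003 ± 0.073, and *Pfkp*, at 0.05 ± 0.09, were nearest to 0.

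In lower glycolysis 4 of 5 log2 fold changes were above 0. *Pgam1* had 56.3, 55.2 and 56.8 CPM in WT and 68.1, 68.2 and 53.8 CPM in BIT mice, so that BIT replicate 3 was the lowest of the 6 and the other 2 the highest. Its log2 fold change was 0.17 ± 0.10. *Eno1* and *Pkm* were also highest in BIT replicate 2, at 450 and 444 CPM. *Pgk1*, at 102, 109 and 85.3 CPM in WT and 106, 103 and 88.3 CPM in BIT mice, was lowest in replicate 3 of both groups, and its log2 fold change was 0.01 ± 0.11.

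None of the 3 lactate genes passed the test. *Ldha* had 254, 285 and 223 CPM in WT and 250, 229 and 206 CPM in BIT mice (log2 fold change -0.15 ± 0.11), with overlap. *Slc16a1* had 60.8, 58.7 and 63.4 CPM in WT and 71.3, 73.0 and 62.9 CPM in BIT mice, so that BIT replicates 1 and 2 lay above the WT mice and replicate 3 among them. Its log2 fold change was 0.18 ± 0.09, with an unadjusted p of 0.0686 and an adjusted p of 0.630 in limma-voom. *Slc16a3* had 0.604, 0.668 and 0.750 CPM in WT and 0.534, 0.750 and 0.399 CPM in BIT mice, and its interval reached past a 2-fold change.

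The RNA of alternative genes or partner subunits was compared between BIT and WT mice in 9 ratios, each a single value per mouse. Only that of *Slc16a1* to *Slc16a3* had no overlap, with 242, 174 and 134 in WT and 363, 252 and 287 in BIT mice. Its log2 difference was 0.74, with a two-sided p of 0.1 in the exact permutation test, the smallest possible, and it rests on 18 to 41 counts of *Slc16a3* per library. For the other 8 ratios the values of BIT and WT mice overlapped, and p ran from 0.3 to 0.8 in the same exact permutation test. The log2 difference was 0.12 for *Hk1* to *Hk2*, 0.03 for *Pfkl* to *Pfkp*, -0.06 for *Pfkm* to *Pfkp* and 0.19 for *Slc2a1* to *Slc2a3*.

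The 4 pentose phosphate genes had nearly the same level in both genotypes. *G6pdx* had 40.5, 38.1 and 37.0 CPM in WT and 39.2, 39.5 and 41.0 CPM in BIT mice, and *Pgd* had 68.1, 67.6 and 64.4 CPM in WT and 68.0, 69.4 and 63.1 CPM in BIT mice. Their log2 fold changes lay between -0.05 (*Tkt*) and 0.05 (*G6pdx*), and their 4 intervals all lay within -0.22 and 0.23. The values of both groups overlapped for each of the 4 genes, and those of *Tkt* and *G6pdx* spread wider in WT than in BIT mice.

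Of the transcription factors, *Myc* had 141, 137 and 111 CPM in WT and 148, 173 and 130 CPM in BIT mice. Its values overlapped through WT replicates 1 and 2 and BIT replicate 3, and replicate 3 was the lowest of each group. The log2 fold change of *Myc* was 0.21 ± 0.13, with an adjusted p of 0.687 in limma-voom. *Hif1a*, for the oxygen-regulated subunit of HIF-1, had 129, 129 and 112 CPM in WT and 121, 113 and 111 CPM in BIT mice, with overlap (log2 fold change -0.10 ± 0.09). RNA does not report on the HIF-1α protein, which is controlled mainly by its breakdown.

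Known genes related to both factors outside glycolysis were taken as lists. The MYC list holds partners and targets of MYC, and the HIF list holds targets and regulators of HIF, among them *Hif1an*. The medians below therefore do not give the response of targets alone. Of 20 genes tested on the MYC list, 0 had an adjusted p below 0.05 in limma-voom and 3 (15%) an unadjusted p below 0.05, against 8.57% of all genes tested. Groups did not overlap for 5 of the 20 (25%), against 13.3% of all genes tested, and the median log2 fold change was 0.005. The smallest p on it was that of *Ccnd2*, for cyclin D2, with 39343, 31410 and 25993 counts in WT and 39844, 38425 and 30687 in BIT libraries, a log2 fold change of 0.36 (adjusted p = 0.358). Of 19 genes tested on the HIF list, 0 had an adjusted p below 0.05 and 0 an unadjusted p below 0.05 in limma-voom, groups did not overlap for 3 (15.8%), and the median was -0.03. The smallest p on it, 0.0557, was that of *Hif1an*, which encodes the asparagine hydroxylase that inhibits HIF (log2 fold change 0.23).

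The other genes of these pathways were taken from a list of 58, of which 36 were tested. Of these, 0 had an adjusted p below 0.05 in limma-voom, in edgeR or in DESeq2, and 1 (2.78%) had an unadjusted p below 0.05 in limma-voom, against 8.57% of all genes tested. This was *Pgm2*, a phosphoglucomutase gene, with 1275, 1187 and 1044 counts in WT and 807, 810 and 714 in BIT libraries. The log2 fold change of *Pgm2* was -0.39, with an adjusted p of 0.312. Among the 36 genes 23 log2 fold changes were above and 13 below 0, with a median of 0.01. Groups did not overlap for 5 of the 36 (13.9%), against 13.3% of all genes tested. *Txnip*, whose product curbs glucose uptake and which is known to be high in resting T cells, had 189 ± 18.6 CPM per kb in WT and 195 in BIT mice, above each of the 32 genes with the length of all exons. With the canonical transcript lengths *Txnip* had 211 CPM per kb in WT mice and stood below *Gapdh* at 325.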

How the data were processed

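RNA of sorted CD4-CD8+ TCRβ-high T cells was sequenced by the authors with a stranded total RNA kit with ribosomal RNA removal, 1 library per mouse (3 WT, 3 BIT). The authors trimmed reads with cutadapt 1.18, aligned them with STAR 2.7.0f and deposited an estimated count for each gene from RSEM 1.3.1 (versions per the submitters' processing notes) on GRCm39 with Gencode M38. The strand setting is not given in the sources used here. Groups were taken from the sample titles. After rounding, genes that passed filterByExpr (edgeR 4.0.16) were fitted with limma 3.58.1 in R 4.3.3, by voom on quantile-normalized counts followed by lmFit and eBayes, and p-values were adjusted by Benjamini-Hochberg over every gene fitted. A gene was called at an adjusted p below 0.05. The test was tried on simulated counts first. Levels are CPM after quantile normalization, except that marker sums are plain CPM, and CPM per kb were made with the exon lengths of Gencode M39. Ratios of 2 genes used (count + 0.5) per kb within a library and an exact permutation test, two-sided. Values are relative to the library total, so a shift of all genes, or fewer cells of a type against less RNA per cell, cannot be seen. Gene and marker lists were chosen with earlier results of these data known. The genes named are the 32, other genes of the same reactions, the gene with the smallest p of each other list, and genes that check the labels. As alternatives, the quasi-likelihood test of edgeR, DESeq2 1.42.0, TMM scaling, sample quality weights, no filter, a filter at a mean of 1 CPM, annotated gene copies added, a block for the replicate number, other thresholds, other lengths and the omission of each mouse were run. A batch term for replicate 3, replicates 1 and 2 alone and the canonical transcript length were added after seeing the data.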

Additional observations from a re-analysis of the deposited data

How the results depend on the processing

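Of the 32 genes, 0 had an adjusted p below 0.05 in any of the alternative fits, with any mouse left out (0 to 0) or at an adjusted p below 0.01 and a 2-fold change, and the same holds for the other pathway genes. At an unadjusted p below 0.05, 3 of the 32 genes and 1 of the other pathway genes would have been counted. The smallest adjusted p among the 32 over the alternatives was 0.222. Over all genes tested, 22 had an adjusted p below 0.05, against 125 in DESeq2, 14 in edgeR, 16 with TMM normalization, 42 with replicate 3 as a batch, 71 in replicates 1 and 2 alone, and 1 (without WT replicate 1) to 37 (without WT replicate 3) with a mouse left out. The median log2 fold change of the 32 genes was -0.02 without BIT replicate 1 and 0.04 without BIT replicate 3, the lowest and highest with a mouse left out, and 0.05 in DESeq2. The log2 fold change kept its sign in all alternatives for 20 of the 32 genes. That of *Gpi1*, near 0, was 0.05 with TMM normalization and 0.06 in edgeR and DESeq2. The log2 fold changes of the 3 genes without overlap ran between 0.17 and 0.28 for *Slc2a1*, -0.30 and -0.17 for *Pdk1*, and -0.33 and -0.22 for *Mpc2*. These genes were picked for their lack of overlap in the same libraries, so leaving out a mouse could hardly turn their direction. They had an unadjusted p below 0.05 in 5, 9 and 9 of 16 alternatives, and the share of all genes with such counts was not taken. The number of isozyme ratios without overlap, 1 of 9, was 1 to 3 with a mouse left out, and 3 without WT replicate 1 or without BIT replicate 3, where fewer mice make overlap less likely.

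With the replicate number as a block, 0 of the 32 genes had an adjusted p below 0.05 and 2 isozyme ratios moved 1 way in all pairs of mice. The numbers were not taken to pair the mice, since the deviations of same-numbered mice correlated at 0.14, 0.03 and 0.33 and WT replicate 2 went best with BIT replicate 1, at 0.24.

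Levels of *Aldoc* and *Slc16a3* rest on 7 to 41 counts per library, too few for a mean of at least 1 CPM. Copies annotated for the 32 genes had few counts, at most 7.08% of those of the gene (*Mpc1-ps* of *Mpc1*) and 2.86% for *Eno1b* of *Eno1*, and RSEM divides reads between such copies.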

Other observations

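Replicate 3 was the lowest library of the 6 for 21 of the 32 genes, 10 times in WT and 11 times in BIT mice, whereas replicate 2 of the BIT mice was the highest for 10. The same counts were not made over all genes tested, so these cannot be read as particular to the 32 genes. WT replicate 3 had the highest level of *Slc2a3* (53.6 CPM) and *Aldoc* (0.540 CPM), and with it the most counts of the activation and division markers *Mki67*, at 2064, and *Gzmb*, at 1386. In the other 5 libraries *Mki67* had 668 to 998 counts and *Gzmb* 106 to 547. *Top2a* and *Il2ra* also had their most counts in WT replicate 3, at 1276 and 141. After quantile normalization *Il2ra* was highest in WT replicate 1, at 2.90 CPM against 2.79 CPM in WT replicate 3. *Cd69* had 6159 counts in WT replicate 3 against 7052 in WT replicate 2 and 6559 in BIT replicate 3, but the library totals differed. Without quantile normalization it had 154 CPM in WT replicate 3, 139 CPM in WT replicate 2 and 175 CPM in BIT replicate 3. The other libraries had 76.5 to 118 CPM. After quantile normalization these 3 libraries had 151, 153 and 164 CPM in the same order. The part of these markers in the levels of *Slc2a3* and *Aldoc* was not tested.

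*Bpgm*, which encodes the bisphosphoglycerate mutase that is abundant in red blood cells, was chosen after its values were seen. It had 1007, 883 and 661 counts in WT and 840, 1577 and 752 in BIT libraries, so that BIT replicate 2 stood above the other 5. That library also had the highest sum of 6 erythroid and platelet markers, 39.1 CPM without quantile normalization against 2.15 to 12.1 CPM in the others, and none of the 6 markers was at 0 in all libraries. The part of these cells in the level of *Bpgm* was not tested.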
